A study of Mus musculus with 45 samples.

Results

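The 10 genes described here, *Miox*, *Slc5a3*, *Slc5a11*, *Slc6a6*, *Slc6a12*, *Akr1b3*, *Sord*, *Nfat5*, *Impa1* and *Isyna1*, make, import or break down the inositol, sorbitol, betaine and taurine of kidney cells, or control those that do. They were chosen by name from 55401 genes counted in the kidneys of 45 mice, starting from *Miox*, the most abundant gene of the study's core list. All 10 passed the filter on low counts in both sexes, and each was in the tables of 15991 protein-coding genes tested in males and 15968 in females. *Miox* and *Impa1* are in that core list, which the study selected on its comparisons of Pkd1KO mice with both other genotypes in both sexes. The differences of these 2 genes in Pkd1KO mice are therefore given as a description, with no test.

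Translating ribosome affinity purification (TRAP) RNASeq recovers mRNA from the ribosomes whose L10a protein bears an EGFP tag. All 45 mice, the controls included, were hemizygous for the tagged ribosome allele (R26Rpl10a), for Pax8rtTA and for TetOCre, and all were given doxycycline. Pax8rtTA drives Cre in kidney tubule cells, so that tagged ribosomes come from tubule cells in which Cre was active. Noncystic mice (8 males, 7 females) also carried 1 floxed and 1 intact allele of *Pkd1*, the gene of polycystin-1. Pkd1KO mice (7 males, 8 females) carried 2 floxed *Pkd1* alleles, and Pkd1KO+ciliaKO mice (9 males, 6 females) carried in addition 2 floxed alleles of *Kif3a*, whose product is needed to build the primary cilium. Kidneys were taken at 7 weeks of age (P49), before cysts were overt. Each library is the kidney of 1 mouse. In such a library, fewer cells of a type and less mRNA per cell cannot be told apart.

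Cells of the renal medulla face high and changing salt and urea. They balance it with organic osmolytes, which are small molecules that do not disturb proteins. *Nfat5* encodes the transcription factor that responds to raised tonicity, and the genes of the inositol carrier *Slc5a3*, the betaine carrier *Slc6a12*, the taurine carrier *Slc6a6* and the aldose reductase *Akr1b3* are known as its targets. Myo-inositol is also made from glucose 6-phosphate, by the synthase *Isyna1* and then the monophosphatase *Impa1*, and is broken down to glucuronate by *Miox*, an oxygenase of the proximal tubule. Sorbitol is made from glucose by *Akr1b3* and oxidized to fructose by *Sord*. *Slc5a11* is a further sodium-coupled inositol carrier.

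The libraries held between 80874556 and 132958186 counts on genes, with a median of 103070359. A floor of 3 counts corresponded to at most 0.0371 CPM, a gene's count scaled to a common library size, far below every member. *Kif3a* checked the labels of the double knockout: its level was 4.90 to 7.45 CPM in the 9 male Pkd1KO+ciliaKO mice against 13.8 to 29.2 CPM in the other males. In females, 1 noncystic library (replicate 5, 6.69 CPM) and 1 Pkd1KO+ciliaKO library (replicate 6, 20.7 CPM) went against their labels. Further, 4 male libraries (noncystic 3, Pkd1KO 4, Pkd1KO+ciliaKO 6 and 8) lay towards the females on the first principal component of all mice. Of these, noncystic 3 and Pkd1KO+ciliaKO 6 and 8 also bear the lowest mouse numbers in the labels of the series. What the numbers stand for is not given, and their part was not tested. These 6 libraries are kept in the values below, and values without them are given where a result rests on them, each comparison then leaving out those that belong to its groups. Reads of *Pkd1* come also from outside the deleted stretch, so its level does not check the labels.

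RefSeq windows of 250 bases before and 50 after the transcription start were on hand for 7 of the 10 genes, on GRCm38.p6, and were searched on both strands for the tonicity-responsive enhancer, the element that *Nfat5* protein is known to bind, and for its core TGGAAA, which every enhancer match contains. An enhancer match was present in 4.96% of all 32851 such windows and the core in 21.4%. Among the 11 windows of the 7 genes, 1 of the 5 windows of *Slc6a12* held a match, which begins 75 bases before the start, and the other 10 windows held neither. A match is a run of letters and not a shown binding site. The stretch with this match is printed with the match in capitals, because *Slc6a12* is the member with the largest change, and the stretch before *Miox*, the most abundant member, is printed beside it without capitals, since neither motif is in it. The first stretch is chr6:121342324-121342573 on the plus strand and ends 503 bases before the annotated start of *Slc6a12*. The second is chr15:89334223-89334397 on the plus strand and ends at the annotated start of *Miox*. *Slc6a6*, *Akr1b3* and *Impa1* are the members outside the windows.
*Slc6a12*: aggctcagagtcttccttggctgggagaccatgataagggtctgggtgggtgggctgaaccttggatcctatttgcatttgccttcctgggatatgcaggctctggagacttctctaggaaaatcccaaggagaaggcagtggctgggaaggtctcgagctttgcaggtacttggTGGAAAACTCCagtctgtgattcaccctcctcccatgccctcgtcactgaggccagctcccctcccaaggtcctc
*Miox*: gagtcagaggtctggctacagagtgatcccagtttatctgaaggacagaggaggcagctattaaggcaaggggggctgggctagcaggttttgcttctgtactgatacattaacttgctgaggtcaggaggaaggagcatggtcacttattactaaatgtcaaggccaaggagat

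Levels of different genes can be set side by side only per transcript length, on the TPM scale, where reads are divided by the length of the transcript and then by the depth of the library. The 2 enzymes that break down osmolytes were far above the rest: *Miox* had a median of 2190 TPM over the 45 mice (range 1190 to 3440) and *Sord* 1830 TPM (1110 to 2880). At these levels only 17 genes exceeded *Miox* by their median and 31 exceeded *Sord*. Their ranges over all mice overlap, but both are read in the same library, where their order differed between the groups of males. *Miox* was above *Sord* in every male noncystic library and below it in most male Pkd1KO and most male Pkd1KO+ciliaKO libraries. In females *Miox* was above *Sord* in most libraries of each group, with exceptions in each. The order in Pkd1KO mice is a description, since *Miox* was chosen on its difference there. In noncystic mice the medians were 2330 TPM for *Miox* and 1700 TPM for *Sord* in males, and 2810 and 1810 TPM in females. The carriers *Slc6a6* (134 TPM, range 79.3 to 247) and *Slc5a3* (108 TPM, 49.4 to 277) followed, and they too overlap. *Isyna1* (63.3 TPM), *Akr1b3* (57.4 TPM), *Impa1* (40.5 TPM), *Slc5a11* (34.2 TPM) and *Nfat5* (27.1 TPM) made a continuous series in which each neighbour overlaps the next. *Slc6a12* was lowest at 4.39 TPM (1.15 to 12.8), below every value of *Nfat5* (16.7 to 50.5). The TPM of males and females come from separate tables. The male Pkd1KO library 2 is less certain on this scale, since its TPM of protein-coding genes summed to 727843 against at least 853188 in the other mice.

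**Figure D1:**
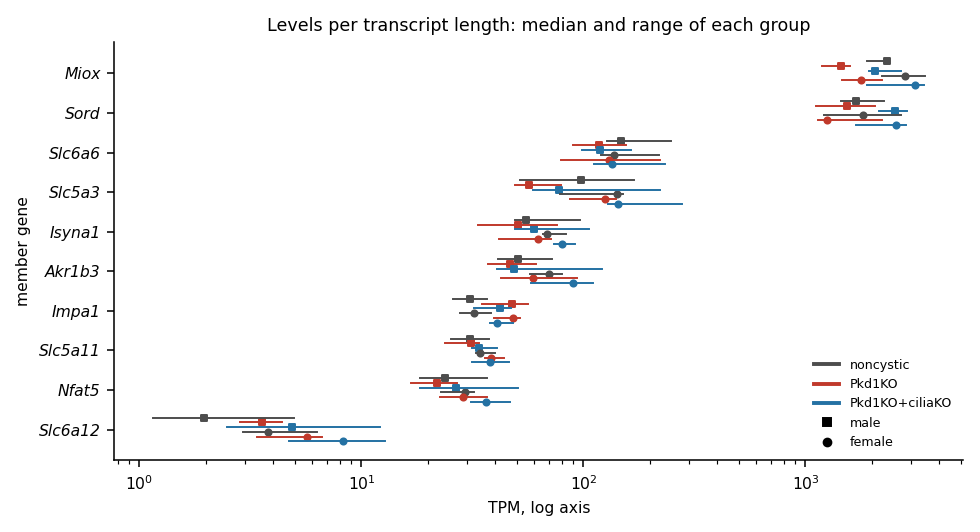
Median (symbol) and range (line) of the TPM of each of the 10 genes in the 6 groups, on a logarithmic horizontal axis, with squares for males, circles for females and colours for genotype. *Miox* and *Sord* stand near 2190 and 1830 TPM, and *Slc6a12*, at 4.39 TPM, is the lowest.

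The 3 genotypes give 3 pairwise comparisons in each sex, and each was fitted with edgeR's quasi-likelihood test over all protein-coding genes with Benjamini-Hochberg adjustment and a threshold of 0.05 on the adjusted p. Every edgeR call of a member between genotypes was in a comparison with Pkd1KO+ciliaKO mice. These are also most of the comparisons, and *Miox* and *Impa1* were left out of the counts wherever Pkd1KO mice enter. In male Pkd1KO+ciliaKO mice, 4 of the 10 members differed from noncystic males, with *Slc6a12*, *Sord* and *Impa1* higher and *Slc6a6* lower, where 8.89% of all genes tested were called. In females the same comparison called 0 of 10 by edgeR, where 2.54% of all genes were called, although DESeq2 and limma on TPM each called 3 (*Impa1*, *Nfat5* and *Slc6a12*) and limma voom 1 (*Nfat5*), and 3 had an unadjusted p under 0.05. Pkd1KO mice had 1 of 8 testable members below Pkd1KO+ciliaKO mice in males (*Sord*; 3.77% of all genes called) and 3 of 8 in females (*Sord*, *Nfat5* and *Isyna1*; 11.7% of all genes called). Between Pkd1KO and noncystic mice edgeR called 0 of 8 in males (6.3% of all genes) and 0 of 8 in females (3.34%). At an unadjusted p under 0.05 these counts were 3 and 1, and DESeq2 called 3 and 0, limma on TPM 0 and 0, and limma voom 2 and 0. The median log2 fold change of the counted members was -0.14 and -0.04 in these last comparisons, -0.22 and -0.35 against Pkd1KO+ciliaKO mice, and 0.05 and 0.23 for Pkd1KO+ciliaKO against noncystic mice, in males and females respectively, beside medians within 0.012 of 0 over all genes. Comparisons within a sex share mice and are not independent of each other.

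**Figure D2:**
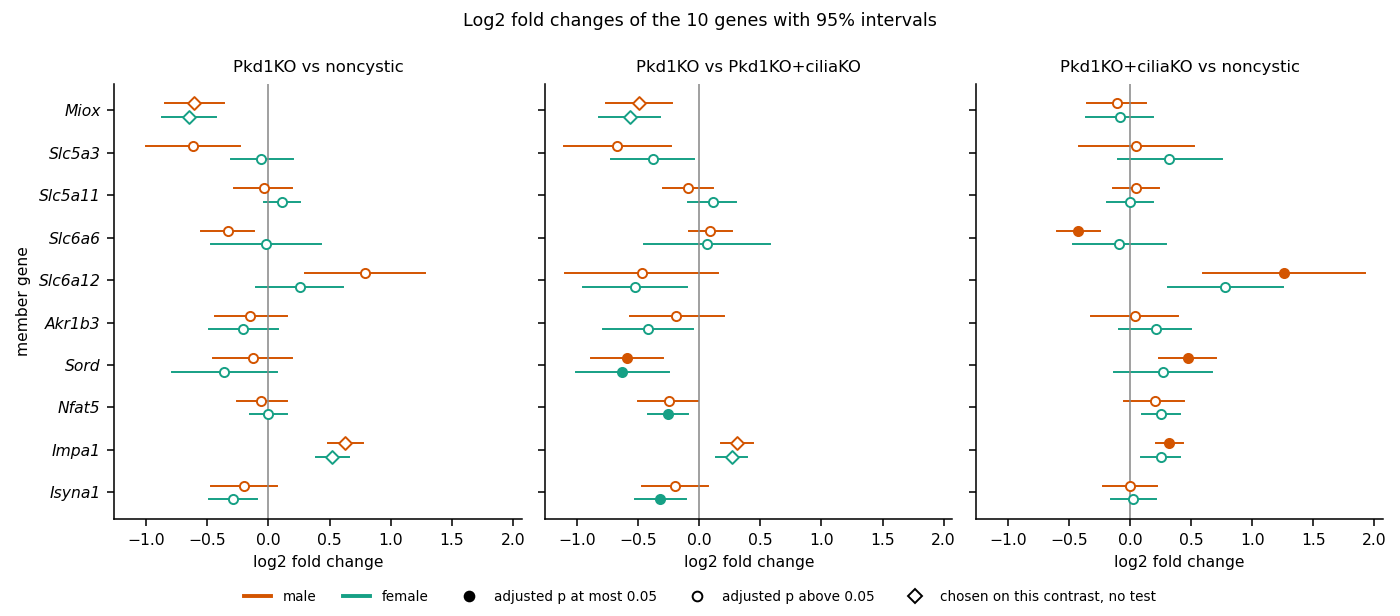
Log2 fold change (horizontal axis) of the 10 genes (rows) in the 3 comparisons of genotypes, with 95% intervals from edgeR, in males and females. Filled symbols have an adjusted p of at most 0.05 and diamonds mark *Miox* and *Impa1* where they were chosen on the contrast and have no test; *Slc6a12* has the largest value, 1.26, in male Pkd1KO+ciliaKO against noncystic mice.

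*Miox* (ENSMUSG00000022613.8, chromosome 15, 89334398-89337011, plus strand, GRCm38) was lower in Pkd1KO mice of both sexes. In males its normalized level (TMM-normalized CPM, lowest, median and highest) was 931, 1310 and 1420 in noncystic mice and 624, 796 and 994 in Pkd1KO mice. It was 831, 1080 and 1410 in male Pkd1KO+ciliaKO mice. All 7 male Pkd1KO mice were below the noncystic median, and 5 of them were below every noncystic male. In females the levels were 1140, 1370 and 1680 CPM in noncystic, 701, 907 and 1120 in Pkd1KO and 945, 1460 and 1600 in Pkd1KO+ciliaKO mice. All 8 female Pkd1KO mice lay below every noncystic female, while female Pkd1KO and Pkd1KO+ciliaKO mice overlapped. The log2 fold change of Pkd1KO against noncystic mice was -0.61 (95% interval -0.85 to -0.36) in males and -0.65 (-0.87 to -0.43) in females, which is 1.52-fold and 1.57-fold lower. Against Pkd1KO+ciliaKO mice it was -0.49 (SE 0.128) in males and -0.57 (SE 0.119) in females.

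The remaining comparison of *Miox* was not itself used by the choice of genes, but both of its groups entered that choice. Its p-values are therefore not independent of the choice, and it gave no call. Pkd1KO+ciliaKO against noncystic mice differed by -0.11 on the log2 scale in males (interval -0.35 to 0.13, edgeR adjusted p = 0.598) and by -0.08 in females (-0.36 to 0.19, adjusted p = 0.751). Without the 6 libraries named above, the highest male Pkd1KO value (994 CPM) was below the lowest of the male noncystic (1080 CPM) and Pkd1KO+ciliaKO (998 CPM) mice. The libraries left out include the noncystic male at 931 CPM and the Pkd1KO+ciliaKO males at 957 and 831 CPM, which were the overlapping mice. *Miox* was chosen on these contrasts, so this separation is a description. How many of all genes separate in this way was not counted. Markers of the proximal tubule, where *Miox* is known to be expressed, differed in males: the summed level of 10 markers of its S1 and S2 segments had a median of 19500 CPM in noncystic (15800 to 21100), 15900 in Pkd1KO (10200 to 18500) and 15800 in Pkd1KO+ciliaKO males (14300 to 18600). Of the 10, *Cubn* and *Gatm* were called lower in Pkd1KO against noncystic males, where 6.3% of all genes were called. *Slc5a2*, *Lrp2*, *Cubn* and *Slc5a12* were called lower in Pkd1KO+ciliaKO against noncystic males, where 8.89% were. Between Pkd1KO and Pkd1KO+ciliaKO males 1 was called higher and 1 lower, where 3.77% of all genes were called. The median log2 fold change of the 10 was 0.04 there. In females the medians were 17200, 17400 and 16100 CPM and none of the 10 was called between Pkd1KO and noncystic mice. None of the 10 markers was at 0 in any group. The part of these markers in the male values was not tested.

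**Figure D3:**
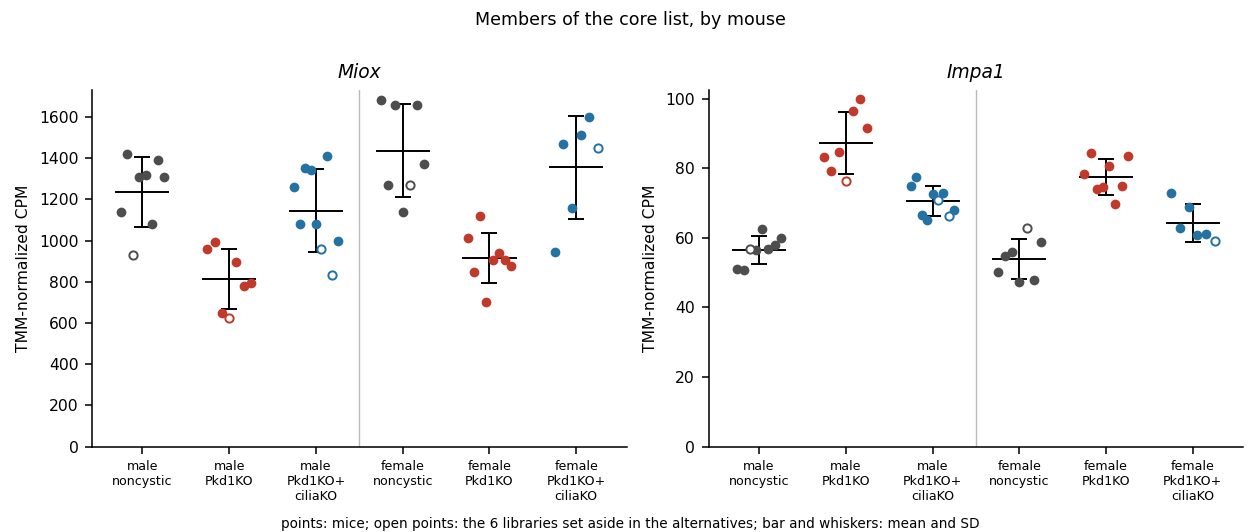
TMM-normalized CPM (vertical axes, from 0) of *Miox* and *Impa1* in each mouse of the 6 groups, with the mean and SD of each group, and open points for the 6 libraries left out in an alternative. *Miox* is lower and *Impa1* higher in the Pkd1KO mice of both sexes, and the *Impa1* medians of Pkd1KO+ciliaKO mice lie in between.

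*Impa1* (ENSMUSG00000027531.16, chromosome 3, 10311956-10331439, minus strand), the monophosphatase that releases free inositol, had higher levels in Pkd1KO mice. In males its level was 50.7, 56.9 and 62.4 CPM (lowest, median, highest) in noncystic, 76.2, 84.7 and 100 CPM in Pkd1KO and 65.2, 71.0 and 77.6 CPM in Pkd1KO+ciliaKO mice. In females it was 47.4, 54.9 and 62.7 CPM, 69.8, 76.6 and 84.3 CPM, and 59.1, 61.8 and 72.9 CPM in the same order. Every Pkd1KO mouse was above every noncystic mouse of its sex, and the group in between in both sexes was Pkd1KO+ciliaKO. How many of all genes separate groups so fully, here and in the comparison that follows, was not counted. The descriptive log2 fold change of Pkd1KO against noncystic mice was 0.63 (interval 0.49 to 0.77) in males and 0.52 (0.39 to 0.66) in females, and against Pkd1KO+ciliaKO mice 0.31 (0.18 to 0.44) and 0.27 (0.14 to 0.39). The comparison of Pkd1KO+ciliaKO against noncystic mice was not itself used by the choice, but both of its groups entered that choice. Its p-values are therefore not independent of the choice. It was called in males, where *Impa1* rose 1.25-fold (log2 fold change 0.32, SE 0.0541, edgeR adjusted p = 0.00121) with all 9 Pkd1KO+ciliaKO males above all 8 noncystic males. In females the value was 0.25 (interval 0.09 to 0.41, adjusted p = 0.0796), and without the 2 female libraries whose *Kif3a* went against the label it was 0.31 (adjusted p = 0.0313), with the groups no longer overlapping.

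*Isyna1* (ENSMUSG00000019139.10, chromosome 8, 70594373-70597191, plus strand), the synthase of the step before *Impa1*, was not higher in Pkd1KO mice. Its level was 48.9, 51.8 and 65.6 CPM in noncystic females, 31.6, 44.8 and 51.7 CPM in Pkd1KO females and 49.8, 53.5 and 67.3 CPM in Pkd1KO+ciliaKO females, with overlap between all 3. It was lower in Pkd1KO than in Pkd1KO+ciliaKO females, by a log2 fold change of -0.32 (SE 0.0995, edgeR adjusted p = 0.0488). This call was lost in 12 of the 14 fits that left out 1 mouse, those other than Pkd1KO replicate 3 and 4, with adjusted p up to 0.101, and also without the 2 female libraries (-0.31, adjusted p = 0.0816). Against noncystic females the value was -0.29 (interval -0.49 to -0.09, adjusted p = 0.113). In males the levels were 41.3, 47.1 and 67.0 CPM in noncystic, 30.0, 44.0 and 54.2 CPM in Pkd1KO and 39.5, 49 and 67.1 CPM in Pkd1KO+ciliaKO mice, and no comparison was called (-0.20 in Pkd1KO against either group, adjusted p = 0.373 against noncystic and 0.408 against Pkd1KO+ciliaKO mice).

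The inositol carrier *Slc5a3* (ENSMUSG00000089774.2, chromosome 16, 92058322-92083808, plus strand) had its lowest male median in Pkd1KO mice, short of the threshold by edgeR and past it by DESeq2. Its level was 204, 362 and 528 CPM (lowest, median, highest) in noncystic, 177, 232 and 285 CPM in Pkd1KO and 212, 273 and 625 CPM in Pkd1KO+ciliaKO males. The 3 groups overlap, and the 2 highest Pkd1KO+ciliaKO values, 625 and 562 CPM, are both from libraries that lay towards the females. The log2 fold change of male Pkd1KO mice was -0.62 against noncystic mice (interval -1 to -0.23, edgeR adjusted p = 0.0548) and -0.67 against Pkd1KO+ciliaKO mice (-1.11 to -0.23, adjusted p = 0.083). DESeq2 called both (adjusted p = 0.0146 and 0.0267), and it alone of the 8 alternatives. Leaving out noncystic replicate 2 or 7 brought the first below the threshold (adjusted p = 0.026 the lowest). Without the 4 male libraries these were -0.45 (adjusted p = 0.148) and -0.32 (adjusted p = 0.214). In females the levels were 268, 460 and 487 CPM, 311, 402 and 434 CPM, and 404, 432 and 917 CPM in noncystic, Pkd1KO and Pkd1KO+ciliaKO mice. Female Pkd1KO mice differed from noncystic females by -0.06 (interval -0.31 to 0.20, adjusted p = 0.888). The difference between the sexes in this fold change, -0.56 (interval -1.13 to 0.02), was not called (interaction, adjusted p = 0.641).

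Markers of the thick ascending limb, where *Slc5a3* is known to be expressed, differed in the same males. The summed level of 6 markers had medians of 3340 CPM in noncystic (2480 to 4590), 2120 in Pkd1KO (2020 to 3480) and 3460 in Pkd1KO+ciliaKO males (2370 to 4330), and of the 6, *Slc12a1* and *Ppp1r1a* were called lower in Pkd1KO than in noncystic males. *Slc12a1* was also lower in Pkd1KO than in Pkd1KO+ciliaKO males. In females the medians were 3610, 3420 and 4470 CPM, and *Cldn16* was called lower in Pkd1KO than in noncystic mice, *Slc12a1* and *Ptger3* lower in Pkd1KO than in Pkd1KO+ciliaKO mice, and *Ptger3* higher in Pkd1KO+ciliaKO than in noncystic mice. None of the 6 was at 0 in any group, and their part in the values of *Slc5a3* was not tested. A lowest median in Pkd1KO males was not particular to this segment, though the ranges below overlap. Summed markers of the distal convoluted tubule had male medians of 1550 (1260 to 2520), 1300 (741 to 1550) and 1500 CPM (1140 to 2000) in noncystic, Pkd1KO and Pkd1KO+ciliaKO mice. Those of intercalated cells had 292 (260 to 308), 245 (190 to 305) and 327 CPM (235 to 383). None of these 5 and 6 markers was called between Pkd1KO and noncystic males. Against Pkd1KO+ciliaKO males 1 of the 5 and 2 of the 6 were called lower. The medians of thin limb and principal cell markers were not lowest in Pkd1KO males. *Slc5a3* also shares 159 exonic bases on the same strand with *Mrps6* (median 105 CPM) in the annotation, so reads there could be given to either gene, and its counts are uncertain to that extent. The second inositol carrier, *Slc5a11* (ENSMUSG00000030769.15, chromosome 7, 123214780-123273253), stayed between 19.3 and 39.3 CPM in all 45 mice. No comparison of genotypes called it, with log2 fold changes from -0.09 to 0.11, and the widest of its intervals, in male Pkd1KO against noncystic mice, ran from -0.28 to 0.19.

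**Figure D4:**
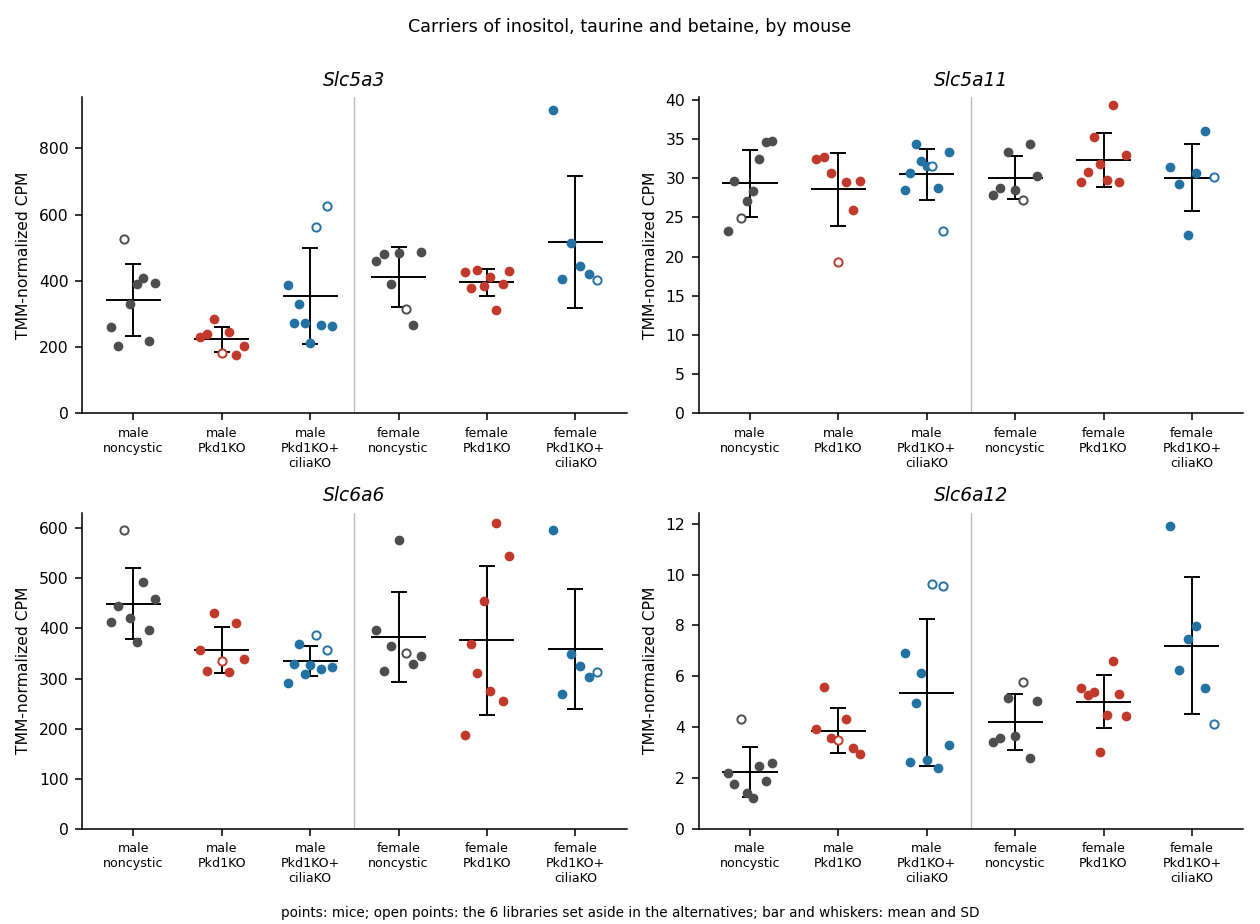
TMM-normalized CPM (vertical axes, from 0) of the inositol carriers *Slc5a3* and *Slc5a11*, the taurine carrier *Slc6a6* and the betaine carrier *Slc6a12* in each mouse, with the mean and SD of each group. *Slc6a12* rises in Pkd1KO+ciliaKO males, from a median of 2.04 to 4.95 CPM, and *Slc6a6* is lower there, with a median of 326 against 433 CPM in noncystic males.

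The betaine carrier *Slc6a12* (ENSMUSG00000030109.15, chromosome 6, 121343076-121365372, plus strand), whose promoter stretch is printed above, was the member with the largest fold change. Its level was 1.21, 2.04 and 4.32 CPM (lowest, median, highest) in noncystic, 2.94, 3.57 and 5.58 CPM in Pkd1KO and 2.40, 4.95 and 9.61 CPM in Pkd1KO+ciliaKO males. Pkd1KO and noncystic males overlap only through noncystic replicate 3, at 4.32 CPM, whose next value was 2.57 CPM, while Pkd1KO+ciliaKO and noncystic males overlap also without it, through the Pkd1KO+ciliaKO value of 2.40 CPM. Pkd1KO+ciliaKO males had 2.39-fold more than noncystic males (log2 fold change 1.26, SE 0.315, edgeR adjusted p = 0.0173), and 1.09 (adjusted p = 0.0102) without the 4 male libraries, which hold the 2 highest Pkd1KO+ciliaKO values. In Pkd1KO against noncystic males the value was 0.79 (interval 0.30 to 1.28, adjusted p = 0.0543), and without the 4 libraries 1.02 (adjusted p = 0.00511), with every Pkd1KO male above every noncystic male. The share of all genes that separate in this way was not counted. This comparison of *Slc6a12* was also called without noncystic replicate 3 or Pkd1KO replicate 7 alone. Over its 8 alternatives the adjusted p of this comparison ran from 0.005 to 0.0968. The 4 libraries were picked for lying towards the females, and *Slc6a12* was higher in noncystic females than in noncystic males, as given below. Leaving them out was thus not independent of the level of *Slc6a12*.

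In females *Slc6a12* was at 2.79, 3.63 and 5.76 CPM in noncystic, 3.02, 5.29 and 6.59 CPM in Pkd1KO and 4.14, 6.85 and 11.9 CPM in Pkd1KO+ciliaKO mice. The values overlap throughout. The log2 fold change of Pkd1KO+ciliaKO against noncystic females was 0.78 (interval 0.31 to 1.25, edgeR adjusted p = 0.0689). Without the 2 libraries whose *Kif3a* went against the label, which were the highest noncystic and the lowest Pkd1KO+ciliaKO mouse for this gene, it was 0.99 (adjusted p = 0.0156) and the groups no longer overlapped. The share of all genes that separate so was not counted. Without the 2 libraries *Slc6a12* was also lower in Pkd1KO than in Pkd1KO+ciliaKO females, by -0.64 (edgeR adjusted p = 0.0398) against -0.53 (adjusted p = 0.0995) with all mice. *Slc6a12* was the only member that edgeR called between the sexes in noncystic mice with all mice in the fit. It was 1.86-fold lower in males (log2 fold change of male against female -0.89, SE 0.233, adjusted p = 0.00845), and called under all 8 alternatives as well as in all 15 fits without 1 mouse.

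The taurine carrier *Slc6a6* (ENSMUSG00000030096.8, chromosome 6, 91684053-91759066, plus strand) fell in Pkd1KO+ciliaKO males. Its level was 372, 433 and 597 CPM in noncystic, 312, 338 and 431 CPM in Pkd1KO and 292, 326 and 386 CPM in Pkd1KO+ciliaKO males. The log2 fold change of Pkd1KO+ciliaKO against noncystic males was -0.43 (SE 0.0839, edgeR adjusted p = 0.00371), 1.34-fold lower, and without the 4 male libraries it was -0.41 (adjusted p = 0.00122) with all 7 remaining Pkd1KO+ciliaKO males below all 7 noncystic males. The share of all genes that separate so was not counted. Of the 8 alternatives, limma on log2(TPM + 1) lost the call of Pkd1KO+ciliaKO against noncystic males (-0.32, adjusted p = 0.118). Pkd1KO males were at -0.33 against noncystic males (interval -0.55 to -0.12, adjusted p = 0.0643), which passed the threshold without noncystic replicate 5 or Pkd1KO replicate 3. It was also called in 4 of the 8 alternatives (DESeq2 and limma voom among them), with adjusted p from 0.0213 to 0.182 over the 8. In females the spread was wide, with 188, 339 and 610 CPM in Pkd1KO mice against 315, 350 and 577 CPM in noncystic and 270, 318 and 597 CPM in Pkd1KO+ciliaKO mice. Their intervals were accordingly wide, and the value of Pkd1KO+ciliaKO against noncystic females was -0.09 (interval -0.47 to 0.29, adjusted p = 0.806). The difference between the sexes in this contrast was -0.34 (interval -0.82 to 0.15) and was not called (interaction, adjusted p = 1).

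*Sord* (ENSMUSG00000027227.7, chromosome 2, 122234749-122265340, plus strand), the dehydrogenase that oxidizes sorbitol, was the 1 member that edgeR called with all mice in both sexes in a comparison of genotypes. DESeq2 and limma on TPM also called *Impa1* and *Slc6a12* in both sexes, as Pkd1KO+ciliaKO against noncystic mice, and so did edgeR without the libraries that stood apart. Its level was 965, 1400 and 1770 CPM (lowest, median, highest) in noncystic, 857, 1200 and 1780 CPM in Pkd1KO and 1540, 1880 and 2250 CPM in Pkd1KO+ciliaKO males. Pkd1KO males were 1.51-fold lower than Pkd1KO+ciliaKO males (log2 fold change -0.59, SE 0.140, edgeR adjusted p = 0.0258), and Pkd1KO+ciliaKO males were 1.38-fold higher than noncystic males (0.47, SE 0.110, adjusted p = 0.0124). The high group was thus Pkd1KO+ciliaKO, and Pkd1KO against noncystic males gave -0.13 (interval -0.45 to 0.19, adjusted p = 0.669). Leaving out 1 mouse (Pkd1KO replicate 6 or 7 or Pkd1KO+ciliaKO replicate 3) lost the call against Pkd1KO in 3 of 16 fits, with adjusted p up to 0.0521. With the replicate number as a block in the fit, both male calls of *Sord* were lost. The edgeR adjusted p was then 0.125 against Pkd1KO and 0.1 against noncystic males.

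In females *Sord* was at 918, 1260 and 1990 CPM in noncystic, 781, 867 and 1620 CPM in Pkd1KO and 1130, 1760 and 1880 CPM in Pkd1KO+ciliaKO mice. Pkd1KO females were 1.55-fold lower than Pkd1KO+ciliaKO females (log2 fold change -0.63, SE 0.179, edgeR adjusted p = 0.0326). That call was lost in 8 of 14 fits without 1 mouse (Pkd1KO replicate 1, 2 or 5, or Pkd1KO+ciliaKO replicate 1 to 5), with adjusted p up to 0.0686, and was kept without the 2 female libraries (-0.72, adjusted p = 0.0195). Pkd1KO+ciliaKO against noncystic females gave 0.27 (interval -0.13 to 0.67, adjusted p = 0.433). The aldose reductase *Akr1b3* (ENSMUSG00000001642.18, chromosome 6, 34302434-34317478, minus strand), which makes the sorbitol that *Sord* oxidizes, was called by edgeR in no comparison with all mice in the fit. It was at 119, 142 and 200 CPM, 103, 130 and 173 CPM, and 109, 134 and 263 CPM in noncystic, Pkd1KO and Pkd1KO+ciliaKO males. In females it was at 149, 182 and 202 CPM, 110, 148 and 220 CPM, and 140, 208 and 276 CPM. Its largest difference was in Pkd1KO against Pkd1KO+ciliaKO females, -0.42 (interval -0.79 to -0.05, adjusted p = 0.128).

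*Nfat5* (ENSMUSG00000003847.16, chromosome 8, 107293470-107379508, plus strand), the tonicity factor, had its highest medians in Pkd1KO+ciliaKO mice. In females its level was 135, 167 and 175 CPM in noncystic, 135, 157 and 190 CPM in Pkd1KO and 172, 187 and 225 CPM in Pkd1KO+ciliaKO mice. Pkd1KO females were 1.20-fold lower than Pkd1KO+ciliaKO females (log2 fold change -0.26, SE 0.0782, edgeR adjusted p = 0.0435), a call lost in 10 of 14 fits without 1 mouse (all but Pkd1KO replicate 1 and 4 and Pkd1KO+ciliaKO replicate 1 and 2) and at an adjusted p of 0.0516 without the 2 female libraries. Against noncystic females the value of Pkd1KO was 0.00 (interval -0.15 to 0.15, adjusted p = 0.997), and Pkd1KO+ciliaKO gave 0.25 (0.10 to 0.41, adjusted p = 0.0735). In males the levels were 121, 146 and 194 CPM, 128, 133 and 165 CPM, and 125, 161 and 241 CPM in noncystic, Pkd1KO and Pkd1KO+ciliaKO mice, and no comparison was called. The male highest value, 241 CPM, is from a library that lay towards the females, as is that of *Akr1b3*.

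In female Pkd1KO against Pkd1KO+ciliaKO mice, the comparison with the calls of *Sord*, *Nfat5* and *Isyna1*, edgeR also called markers of tubule segments. Of the 6 markers of the proximal tubule S3 segment, 3 were called higher in Pkd1KO females (*Slc5a1*, *Atp11a* and *Slc7a12*, median log2 fold change of the 6 0.87), and their summed level was 848 to 1870 CPM against 503 to 973 CPM in Pkd1KO+ciliaKO females. Of the 10 markers of S1 and S2, 2 were called higher. In this comparison 11.7% of all genes were called. Other lists had calls too, with 1 of 6 intercalated cell markers lower, and 1 of 6 macrophage and 1 of 8 injury markers higher. Lower in Pkd1KO females were 2 of the 6 markers of the thick ascending limb, given above, and 2 of the 5 of the distal convoluted tubule (*Pvalb* and *Wnk4*, median of the 5 -0.30), whose summed level was 1430 to 1580 CPM against 1530 to 2210 CPM. None of the S3 and distal convoluted tubule markers was at 0 in these females, with *Slc7a13* the lowest (0.164 to 0.717 CPM in Pkd1KO mice). The part of these markers in the 3 calls was not tested.

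**Figure D5:**
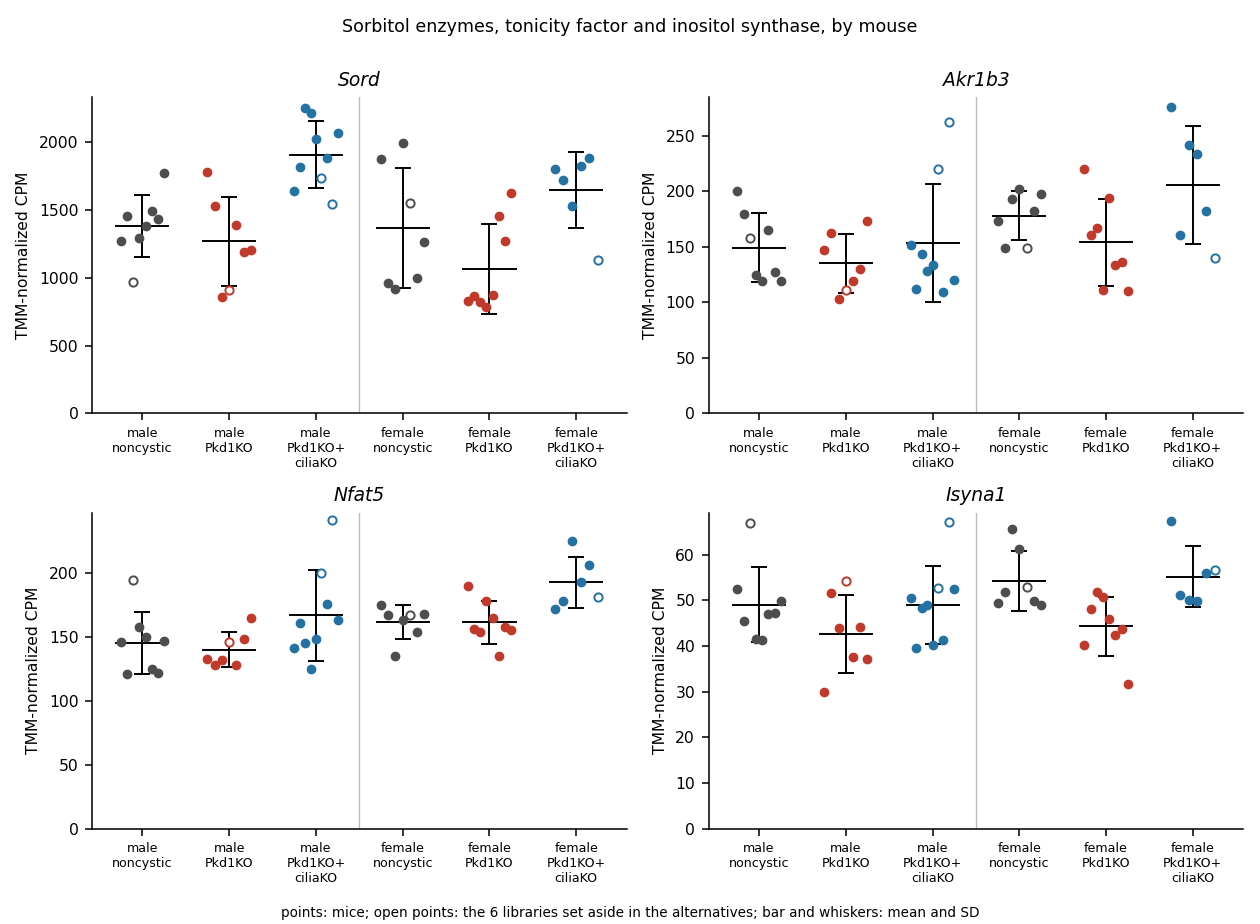
TMM-normalized CPM (vertical axes, from 0) of the sorbitol enzymes *Sord* and *Akr1b3*, the tonicity factor *Nfat5* and the inositol synthase *Isyna1* in each mouse, with the mean and SD of each group. *Sord* is highest in Pkd1KO+ciliaKO mice, with medians of 1880 CPM in males and 1760 CPM in females, against 1200 and 867 CPM in Pkd1KO mice.

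Between the sexes in noncystic mice, 27.5% of all genes tested were called and 1 of the 10 members by edgeR, *Slc6a12*. Limma on TPM added *Akr1b3* (-0.40, adjusted p = 0.0225) and *Miox*, and limma voom *Nfat5* and *Slc6a6*. With edgeR, leaving out 1 mouse added *Nfat5* and *Isyna1* (male replicate 3), *Akr1b3* (male replicate 1) or *Slc6a6* (female replicate 4). *Miox* was at -0.20 in males against females (interval -0.43 to 0.03, edgeR adjusted p = 0.195) and *Sord* at 0.04 (-0.33 to 0.40, adjusted p = 0.903). The summed level of 6 markers of the proximal tubule S3 segment had medians of 3620 CPM in these males and 1240 CPM in these females. Of the 6, 3 were called higher and 1 lower in males. Whether this sum follows the amount of the segment in each sex was not tested. Whether a difference between genotypes itself differed between the sexes was tested in 1 fit of all 45 mice. That interaction called 0 of 8 members for Pkd1KO against noncystic mice, 0 of 8 for Pkd1KO against Pkd1KO+ciliaKO mice and 0 of 10 for Pkd1KO+ciliaKO against noncystic mice by edgeR, and 0 by DESeq2 and by limma on TPM. In the 3 interactions 0.0126%, 0.221% and 0.0316% of all genes were called. At an unadjusted p under 0.05 the count of members was 0 in each. The largest difference between the sexes in these fits was the -0.56 of *Slc5a3* given above.

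A wider list of 52 genes of these pathways, of which 51 were tested, is given by its counts. Between Pkd1KO and noncystic mice 0 were called in males by edgeR (6.3% of all genes), with 11 at an unadjusted p under 0.05, and 1 in females (3.34% of all genes), where *Pnpla6*, a phospholipase that yields glycerophosphocholine, was higher (log2 fold change 0.36, adjusted p = 0.038). In Pkd1KO against Pkd1KO+ciliaKO mice, 2 were higher and 1 lower in males, where 3.77% of all genes were called, and 5 higher and 3 lower in females, where 11.7% were. *Slc6a13*, a further carrier of taurine, was higher in Pkd1KO mice of both sexes (0.53, adjusted p = 0.0407 in males, and 0.85, adjusted p = 0.00269 in females). In males *Itpka*, an inositol trisphosphate kinase, was higher by 1.30 (SE 0.185, adjusted p = 0.000506) and *Ip6k1*, an inositol hexakisphosphate kinase, lower (-0.26, adjusted p = 0.0131). In females *Dmgdh*, which breaks down dimethylglycine after betaine has given up a methyl group, was higher (0.79, adjusted p = 0.00138) and the proton-coupled inositol carrier *Slc2a13* lower (-0.62, adjusted p = 0.0168).

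In Pkd1KO+ciliaKO against noncystic mice, 2 of the 51 genes were higher and 2 lower in males, where 8.89% of all genes were called, and 1 was higher and 4 lower in females, where 2.54% were. *Itpka* was 2.43-fold lower in males (log2 fold change -1.28, SE 0.161, edgeR adjusted p = 6.6e-05), while the aldose reductase relative *Akr1b8* (0.47, adjusted p = 0.020) and the amino acid carrier *Slc38a2* (0.44, adjusted p = 0.0358) were higher. In females *Dmgdh* (-0.57, adjusted p = 0.0235), the inositol tetrakisphosphate kinase *Itpk1* (-0.29, adjusted p = 0.0257) and the ketohexokinase *Khk*, which acts on the fructose that *Sord* makes (-0.39, adjusted p = 0.036), were lower. The median log2 fold change of the list lay between -0.05 and 0.05 in all 6 comparisons of genotypes.

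How the members varied from mouse to mouse within groups was described by the Pearson r of log2(CPM + 0.1) after subtraction of the group means, over 45 mice, which share library depth and tissue composition, so no test is given. The 5 genes most like *Miox* among 9509 were *Cela1* (r = 0.80), *Ascc1* (0.79), *Slc26a1* (0.77), *Fn3k* (0.76) and *Fam151a* (0.76). Without the 6 libraries (39 mice), *Cela1* (0.72), *Ascc1* (0.70) and *Fn3k* (0.68) were still among the 5. The 5 most like *Slc5a3* were *Esrrb* (0.82), *Trpm6* (0.81), *Tfcp2l1* (0.80), *Atp8b1* (0.79) and *Stk39* (0.78), and of these only *Esrrb* (0.69) was among the 5 without the 6 libraries. Among the members, *Slc5a3* varied with *Slc6a12* (r = 0.61), *Nfat5* (0.45) and *Akr1b3* (0.43), and *Miox* varied with *Slc5a11* (0.48) and against *Slc6a6* (-0.49), *Slc5a3* (-0.47), *Isyna1* (-0.45) and *Nfat5* (-0.44). Many other genes had r as far from 0. Counted from the highest r among the 9509 genes, these members had ranks 196, 944 and 1092 for *Slc5a3*. For *Miox* the ranks were 1023, 9191, 9078, 8974 and 8911, in the order given. Most of these r were nearer 0 without the 6 libraries: *Slc5a3* then had 0.42 with *Slc6a12*, 0.07 with *Nfat5* and 0.08 with *Akr1b3*, and *Miox* 0.28 with *Slc5a11*, -0.50 with *Slc6a6*, -0.36 with *Slc5a3*, -0.21 with *Isyna1* and -0.15 with *Nfat5*. *Miox* and *Impa1*, whose levels lay on opposite sides of the noncystic mice in Pkd1KO mice, had an r of -0.15 within groups, and of -0.28 without the 6 libraries.

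Some counts are uncertain by the annotation. *Impa1* shares 243 exonic bases with *Gm38303* on the same strand, which had a median of 0 CPM, and *Slc6a6* shares 117 with *Gm44981* on the opposite strand (0.475 CPM). Whether the counting used strand is not given in the sources used here. *Akr1b3* has close relatives of the same family, among which reads may be divided.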

How the data were processed

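The authors deposited 1 raw count per gene and mouse, per the labels made with fastp 0.20.0, STAR 2.7.9 and featureCounts 2.0.0 on GRCm38.p6, and TPM of protein-coding genes, with males and females in separate tables. Strand and multimapping options are not given in the sources used here. The 55401 gene IDs were paired with GENCODE vM21 symbols for 55141. Groups and replicate numbers came from the sample labels, 1 mouse per library. The 10 genes and all gene lists were chosen with earlier results of these data known.

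The filter asked for 6 counts or more in 20% or more of the males or females, and the protein-coding genes it kept were tested with edgeR 4.0.16 in R 4.3.3 (TMM, quasi-likelihood, Benjamini-Hochberg over all genes), each pair of genotypes by itself as in the study, which used DESeq2. The sex comparison and the interactions used the 15828 genes kept in both sexes. SE is the log2 fold change divided by the square root of F. Values by mouse are CPM with TMM factors over all 45 mice. Total counts were 80874556 to 132958186, and the floor of 3 counts covers counting error only. No pair of libraries of a group agreed within sampling noise (149 pairs, chi-square per degree of freedom at least 53.6). All 10 genes were named, with, of the wider list, the 3 called genes of smallest p in each comparison of genotypes, and the 5 genes most like *Miox* and *Slc5a3* among those with a mean of at least 10 CPM. The step was tested on simulated data. Alternatives were DESeq2 1.42.0, its size factors in edgeR, no filter, limma 3.58.1 on log2(TPM + 1), limma voom with sample weights, 1 fit per sex, the replicate number as a block, leaving out the libraries that stood apart (first component, 42.3% of the variance, or *Kif3a*), and leaving out each mouse. For the sexes, the limma fit compares TPM of separate tables.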

Additional observations from a re-analysis of the deposited data

Results flagged for a closer look

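In each of the 60 sets of values (10 genes in 6 groups of 6 to 9 mice) the highest and lowest mouse was compared with its neighbour by Dixon's criterion, which chance alone meets in about 1 of 20 groups, and 7 sets met it. In Pkd1KO+ciliaKO females, replicate 1 stood alone for both *Slc5a3* (917 CPM, next 513 CPM) and *Slc6a6* (597 CPM, next 349 CPM), and it was also the highest of its group for *Slc6a12* at 11.9 CPM. In noncystic females, replicate 4 had 577 CPM of *Slc6a6*, next 396 CPM, and without it *Slc6a6* was called higher in noncystic males than females (edgeR adjusted p = 0.00722, against 0.149 with all mice). In Pkd1KO females, replicate 6 had the lowest *Slc5a3*, 311 CPM, with the next at 378 CPM. In noncystic males, replicate 3 was highest for *Slc6a12* (4.32 CPM, next 2.57 CPM) and for *Isyna1* (67.0 CPM, next 52.5 CPM). In Pkd1KO+ciliaKO males, replicate 8 was highest for *Isyna1* (67.1 CPM, next 52.7 CPM). Both of these last mice are among the 4 males that lay towards the females on the first principal component. No explanation was tested.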

How the results depend on the processing

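The alternatives moved how many members passed the threshold. DESeq2 called 3 for Pkd1KO against noncystic males (0 by edgeR), 2 for Pkd1KO against Pkd1KO+ciliaKO males (1), and 3 for Pkd1KO+ciliaKO against noncystic females (0). Limma voom with sample weights called 2, 1 and 3 for male Pkd1KO against noncystic, female Pkd1KO+ciliaKO against noncystic and male against female noncystic mice, and limma on log2(TPM + 1) called 3 in each of the last 2. The fit of 3 genotypes together called 1 for male Pkd1KO and 1 for female Pkd1KO+ciliaKO against noncystic mice. Without the 4 males, 1 was called for Pkd1KO against noncystic males and 3 between the sexes (where only noncystic replicate 3 of the 4 enters), and without the 2 females, 2 for Pkd1KO+ciliaKO against noncystic females. Leaving out 1 mouse gave 0 to 1, 0 to 1, 0 to 3, 0 to 2 and 1 to 3 members for male Pkd1KO against noncystic, male and female Pkd1KO against Pkd1KO+ciliaKO, female Pkd1KO+ciliaKO against noncystic and male against female mice. The 4 calls in Pkd1KO+ciliaKO against noncystic males numbered 4 in every such fit. The cause of these shifts was not tested.

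Same-numbered mice did not vary together (r -0.37 to 0.47 over 48 pairs, 6 of them best with their own number), so the numbers pair no mice. With the replicate number as a block, the members called were 1 and 0 for male Pkd1KO against noncystic and against Pkd1KO+ciliaKO mice, and 1 and 1 for the same in females. For male Pkd1KO+ciliaKO against noncystic mice 3 were called, with *Sord* lost. The genes called over the whole table under the block were 170 (603 without it), 764 (1422), 294 (533), 612 (1869) and 100 (405) in the comparisons where they moved by over 1.5 times: male Pkd1KO against Pkd1KO+ciliaKO, male Pkd1KO+ciliaKO against noncystic, and the 3 female comparisons in the order Pkd1KO against noncystic, Pkd1KO against Pkd1KO+ciliaKO, Pkd1KO+ciliaKO against noncystic.

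Over all genes, DESeq2 called 1640 (1008), 1234 (603) and 2157 (1422) in males and 962 (533) and 1279 (405) in the first and last female comparison, and voom 1389 (603), 2803 (1422), 809 (533) and 1357 (405) in the same ones other than male Pkd1KO against noncystic. Limma on TPM called 625 (1008) for male Pkd1KO and 1000 (405) for female Pkd1KO+ciliaKO against noncystic mice. The joint fit called 929 (603) for male Pkd1KO against Pkd1KO+ciliaKO. Pkd1KO+ciliaKO against noncystic mice gave 2240 (1422) without the 4 males and 926 (405) without the 2 females. For the interactions DESeq2 called 29 (2), 72 (35) and 21 (5), limma on TPM 0 and 8 in the first and last, and the fit without 6 libraries 0 in the first.

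The signs that turned belong to values that were not called, or to *Miox* where it has no test. With voom, log2 fold changes became 0.034 (*Nfat5*, male Pkd1KO against noncystic), 0.062 (*Akr1b3*, male Pkd1KO against Pkd1KO+ciliaKO), -0.05 and -0.17 (*Slc5a3* and *Akr1b3*, male Pkd1KO+ciliaKO against noncystic), -0.03 (*Nfat5*, female Pkd1KO against noncystic), 0.038 and 0.0019 (*Miox* and *Slc5a11*, female Pkd1KO+ciliaKO against noncystic) and 0.0033 (*Slc5a11*, sexes). With limma on TPM they became -0.035 and -0.08 (*Slc6a6*, Pkd1KO against Pkd1KO+ciliaKO, males and females), 0.087 (*Isyna1*, male Pkd1KO+ciliaKO against noncystic), 0.036, 0.11 and 0.012 (*Miox*, *Slc5a11* and *Slc6a6*, female Pkd1KO+ciliaKO against noncystic), -0.067 and -0.059 (*Sord* and *Impa1*, sexes) and -0.023 (*Miox*, interaction of Pkd1KO against noncystic). Without the 4 males they became 0.0047 and 0.0052 (*Slc5a11* and *Nfat5*, Pkd1KO against noncystic), 0.11 (*Akr1b3*, Pkd1KO against Pkd1KO+ciliaKO), -0.15 and -0.21 (*Slc5a3* and *Akr1b3*, Pkd1KO+ciliaKO against noncystic) and 0.0092 (*Slc5a11*, sexes). *Slc5a11* in female Pkd1KO+ciliaKO against noncystic mice was 0.0055 with DESeq2 and with its size factors, and *Nfat5* in female Pkd1KO against noncystic mice -0.011 in the joint fit. Among interactions, *Nfat5* was -0.0039 without the filter, and *Slc5a3* 0.13 (Pkd1KO against Pkd1KO+ciliaKO) and *Miox* 0.057 (Pkd1KO+ciliaKO against noncystic) without the 6 libraries.

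Leaving out 1 mouse turned signs in these ranges of log2 fold change. In males, Pkd1KO against noncystic mice ranged from -0.086 to 0.036 (*Slc5a11*) and -0.095 to 0.016 (*Nfat5*), and Pkd1KO+ciliaKO against noncystic mice from -0.093 to 0.16 (*Slc5a3*), -0.091 to 0.11 (*Akr1b3*) and -0.065 to 0.073 (*Isyna1*). In females, Pkd1KO against noncystic mice ranged from -0.17 to 0.094 (*Slc6a6*) and -0.038 to 0.024 (*Nfat5*), Pkd1KO against Pkd1KO+ciliaKO mice from -0.071 to 0.27 (*Slc6a6*), and Pkd1KO+ciliaKO against noncystic mice from -0.14 to 0.0022 (*Miox*), -0.061 to 0.078 (*Slc5a11*), -0.29 to 0.037 (*Slc6a6*) and -0.041 to 0.081 (*Isyna1*). Between the sexes the ranges were -0.056 to 0.031 (*Slc5a11*) and -0.042 to 0.15 (*Sord*). Mean TPM of every gene and group moved by less than 1 SD without the 6 libraries. Every level lay far above the floor of 3 counts, and what limits these calls was not tested.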

Other observations

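Of the wider list of osmolyte and inositol genes, in noncystic mice 24 of its 51 tested genes were called between males and females, 16 higher and 8 lower in males, where 27.5% of all genes were called. The following genes were chosen after their values were seen. *Bhmt*, which passes a methyl group of betaine to homocysteine, was 4.92-fold lower in males (log2 fold change -2.30, SE 0.366, edgeR adjusted p = 0.000169). *Chdh*, which makes betaine from choline, was higher in males (0.52, adjusted p = 1.4e-05), as were *Csad*, an enzyme of taurine synthesis (0.92, adjusted p = 3.6e-05), and *Xylb*, a kinase at the end of the glucuronate and xylulose pathway into which *Miox* feeds (0.74, adjusted p = 3.1e-05). *Impa2*, the relative of *Impa1*, was lower in males (-0.47, adjusted p = 0.000655), while *Impa1* itself was at 0.08 (adjusted p = 0.398).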
